A study of Mus musculus with 6 samples.

Results

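The cytosolic large ribosomal subunit (60S) is built from ribosomal RNA and many small proteins, and 40 of the 22770 gene rows of a ribosome profiling table encode such proteins. These 40 genes were chosen by symbol alone, as Rplp0 to Rplp2 and every Rpl followed by a number with or without a final a. Rpl3, Rpl10, Rpl22 and Rpl39, which have germ line copies, were left out, as were rows marked as pseudogenes and l-type relatives. No measured value enters this rule, but the set was chosen with earlier results of these data known. All 40 rows passed the limit for testing, a 6-library mean of 1 FPKM or more, and none had the same 6 values as another row.

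Ribosome-protected RNA was sequenced from mouse round spermatids, the haploid cells that follow meiosis, in 3 wild-type and 3 Eif5a SKO libraries. The labels give no strain, age, promoter or Cre driver, and do not spell out SKO. They name 2 small RNA library kits without saying which library was made with which. The series' design text, written for another assay, describes cells sorted from 3 mice per group, so p-values here reflect differences among animals as far as that text applies.

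Ribosomal proteins are made from mRNAs that begin with a run of pyrimidines, the terminal oligopyrimidine (TOP) tract, through which growth signals switch their translation together. The subunits are needed in equal numbers, and surplus protein is normally degraded. EIF5A, the hypusine-bearing factor targeted here, enters the ribosome beside the exit site for tRNA and touches the L1 stalk of the large subunit, where it helps stalled ribosomes form peptide bonds and release finished chains. Ribosomal protein genes are used by every cell type, so footprints on them in a sorted sample can come from any cell in it.

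Eif5a itself served as the check of the labels. It had 34.2, 48.8 and 61.9 FPKM in wild-type replicates 1 to 3 and 1.84, 1.93 and 2.99 FPKM in SKO, with no overlap (log2 fold change -3.90 on the log2(FPKM + 1) scale, limma adjusted p = 0.00641). The two-sided exact permutation p was 0.1, the smallest that 20 assignments allow. FPKM is a density, here footprints scaled by transcript length and by the mapped fragments of the library. Absolute depth is unknown. Of 1800 rows between 0 and 1 FPKM in every library, 24.7% moved in whole-number steps within 2%, too few to recover read counts. Protein-coding rows held 18.2% to 32.9% of the summed FPKM of a library, the lowest in SKO replicate 1 and the highest in SKO replicate 2.

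The annotated starts of the 60S genes show the pyrimidine tracts that mark the family. RefSeq promoter windows of GRCm38.p6, the assembly behind mm10, were matched by symbol for 29 of the 40 genes. The 50 bases shown for each gene cover 30 bases before the annotated start and 20 from it onward, 5′ to 3′ on the gene's strand, with the longest run of C and T near the start in capitals. Rpl35 and Rpl15 are shown because both carry long tracts and their log2 fold changes had opposite signs. The genotypes overlapped in both genes as deposited, and neither passed the test described below. Rplp2 and Rpl38 had the highest footprint densities. Rpl41, Rpl9 and Rplp0 stood at the ends of the ranking by difference. Their longest runs were 3, 4 and 7 bases, against a median of 7 over the 29 genes. Rpl35 and Rpl15, with runs of 18 and 17, were also among the 4 highest and the 4 lowest log2 fold changes. Rpl32, with the largest difference, had no window.
Rpl35: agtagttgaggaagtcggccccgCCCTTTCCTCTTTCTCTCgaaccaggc
Rpl15: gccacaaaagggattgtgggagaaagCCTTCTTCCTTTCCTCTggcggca
Rplp2: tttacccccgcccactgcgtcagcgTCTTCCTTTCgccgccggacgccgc
Rpl38: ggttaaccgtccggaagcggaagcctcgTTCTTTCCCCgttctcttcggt
Rpl41: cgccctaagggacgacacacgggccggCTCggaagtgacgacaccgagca
Rpl9: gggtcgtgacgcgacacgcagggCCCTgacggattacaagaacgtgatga
Rplp0: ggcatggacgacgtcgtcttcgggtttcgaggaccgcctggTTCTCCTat

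The windows lie at chr2:39005112-39005161 (minus strand) for Rpl35, chr14:18270967-18271016 (minus) for Rpl15, chr7:141447621-141447670 (plus) for Rplp2 and chr11:114668550-114668599 (plus) for Rpl38. Those of Rpl41, Rpl9 and Rplp0 lie at chr10:128549149-128549198 (minus), chr5:65391412-65391461 (minus) and chr5:115559437-115559486 (plus). Within 20 bases either side of the start, 14 of the 29 genes (48.3%) held an unbroken run of at least 8 C or T, against 15.9% of 27025 genes in the promoter table. The letters CTTTC, read on the gene's strand in the same stretch, occurred in 12 of 29 (41.4%) against 5.38% of all genes. Both measures overlap, since CTTTC consists of C and T. CCGGAAG, the core letters bound by ETS-type factors, occurred on either strand of the 300-base window in 12 of 29 (41.4%) against 9.12%. The 40S genes, with 24 windows, gave 45.8% for the run, 20.8% for CTTTC and 41.7% for CCGGAAG. An annotated start can lie some bases away from the start used in spermatids. Across the 29 genes, the run length had a Spearman correlation of -0.03 with the log2 fold change between genotypes and -0.14 with the mean level, given as descriptions.

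Footprint densities of the 60S genes spanned a wide range. The mean over the 6 libraries ran from 3.24 FPKM for Rpl17 to 184.0 FPKM for Rpl38, a 56.8-fold range, with a median of 25.9 FPKM. The 4 densest genes held 33.4% of the summed density. Rpl38, which encodes one of the smallest 60S proteins, had 118, 151 and 227 FPKM in wild type and 123, 295 and 190 FPKM in SKO. Rplp2, an acidic protein of the P stalk, had 87.4, 109 and 148 FPKM in wild type and 120, 253 and 205 FPKM in SKO. Rpl23, which lies at the subunit interface, had 88.8, 105 and 152 FPKM in wild type and 93.0, 195 and 146 FPKM in SKO. Rpl18 had 53.2, 86.7 and 136 FPKM in wild type and 93.0, 160 and 178 FPKM in SKO. In all 4 genes the genotypes overlapped, and wild-type replicate 1 was the lowest of its group. At the other end 6 genes had a mean under 5 FPKM (Rpl17, Rpl29, Rplp0, Rpl10a, Rpl21 and Rpl12).

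**Figure D1:**
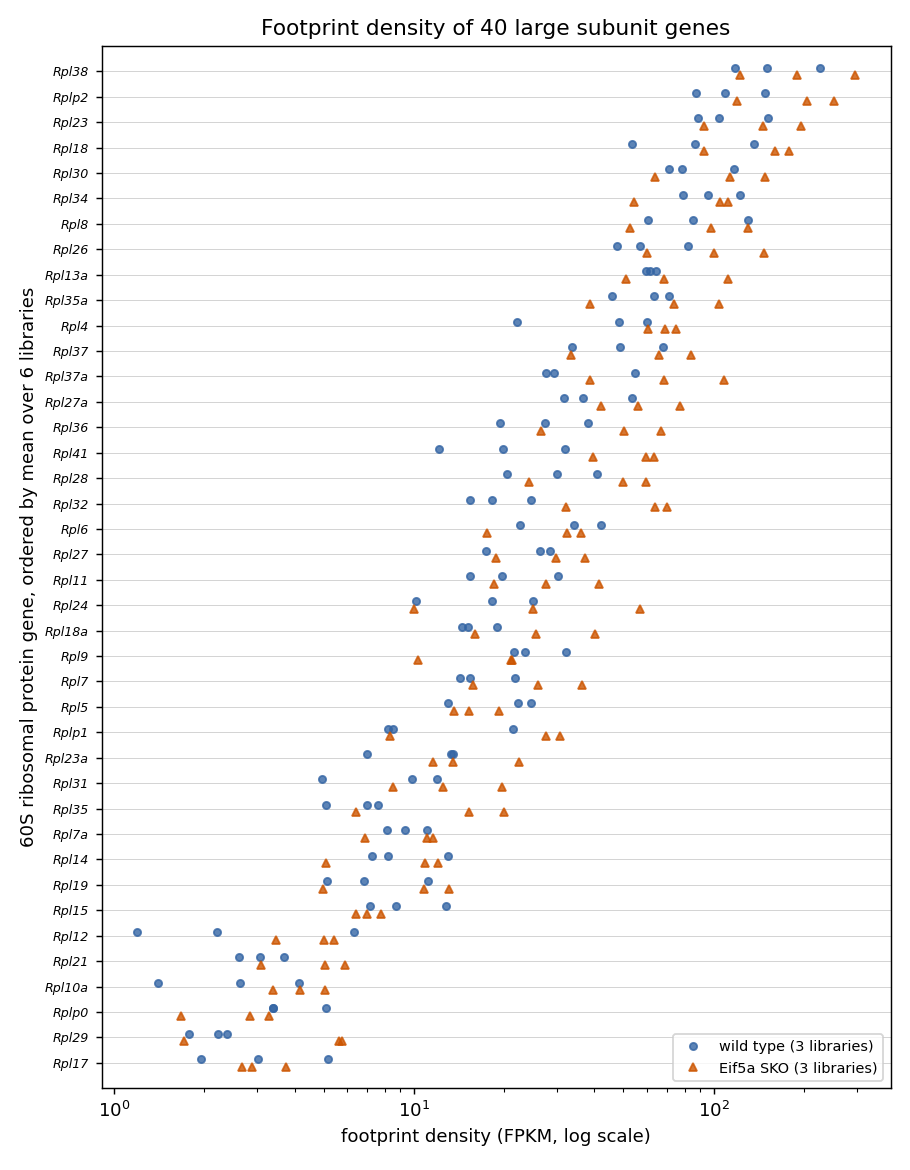
Footprint density of each of the 40 genes in each library, in FPKM on a log axis, with genes ordered by their mean over the 6 libraries; circles are wild type and triangles are Eif5a SKO. The means run from 3.24 FPKM (Rpl17) to 184.0 FPKM (Rpl38), and the triangles of Rpl32 and Rpl41 all lie to the right of the circles.

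The 40 genes moved together from library to library. Wild-type replicates 1, 2 and 3 had geometric means of 15.9, 19.6 and 26.3 FPKM over the 40 genes. The SKO replicates had 18.04, 35.7 and 29.1 FPKM. Of the 40 genes, 34 were highest in wild type in replicate 3 and 32 were lowest there in replicate 1. In SKO, 34 were lowest in replicate 1 and 28 highest in replicate 2. The scaling factors computed from all tested rows (TMM-type) ran in the same order within each genotype, at 0.812, 0.927 and 1.11 for wild type, with 0.848, 1.31 and 1.08 for SKO.

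As a share of protein-coding footprint density, the 60S genes were higher in every SKO library than in any wild-type library. They held 0.862%, 0.862% and 0.893% of the summed protein-coding FPKM in wild-type replicates 1, 2 and 3, against 0.920%, 1.01% and 1.02% in the SKO libraries. The group means were 0.872% ± 0.0177 and 0.986% ± 0.0571 (SD, n = 3 each). Without the 4 densest genes the shares were 0.592%, 0.587% and 0.590% against 0.612%, 0.672% and 0.670%, and again the groups did not overlap. The summed FPKM as deposited did overlap, at 1107, 1414 and 1953 for wild type, against 1281, 2684 and 2086 for SKO. As a share of the FPKM of all rows, the 60S genes held 0.223%, 0.193% and 0.252% in wild type, against 0.167%, 0.333% and 0.303% for SKO, so SKO replicate 1 was the lowest of the 6 libraries. After TMM-type scaling the sums were 1363, 1525 and 1755 for wild type, against 1511, 2051 and 1940 for SKO, and overlapped. The separation was therefore seen with protein-coding rows as the denominator and not on these other scales. No p is given for a sum over chosen genes. From footprints of sorted cells, more RNA per cell, more ribosomes per RNA and more cells of a type that holds it cannot be told apart.

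**Figure D2:**
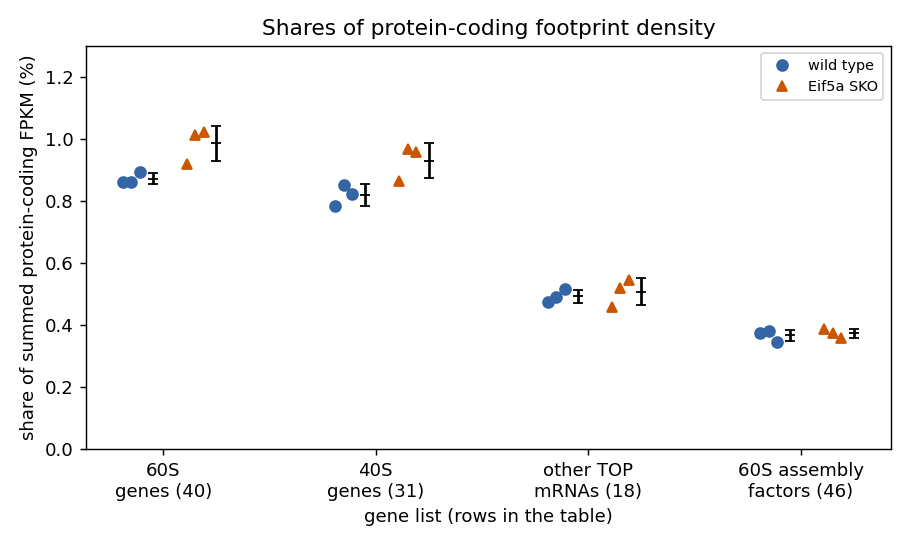
Share of the summed protein-coding FPKM, in percent, held by 4 gene lists in each library, with the mean and SD of each group (n = 3) as bars beside the points; circles are wild type and triangles are Eif5a SKO. The 60S genes lie at 0.862% to 0.893% in wild type and 0.920% to 1.02% in SKO, while the other TOP mRNAs and the 60S assembly factors overlap between genotypes.

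With the same denominator, the small subunit genes showed the same separation. The 31 cytosolic 40S genes in the table held 0.783%, 0.853% and 0.823% of protein-coding FPKM in the wild-type libraries, against 0.866%, 0.968% and 0.958% for SKO. The ratio of summed 60S to summed 40S density was 1.10, 1.01 and 1.09 for wild type, against 1.06, 1.05 and 1.07 for SKO, so it overlapped between genotypes.

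In the test of single genes, no 60S gene passed. Of 40 tested, 0 were higher and 0 lower at the 0.05 threshold (limma, p adjusted over 15578 rows), against 0.109% of all tested rows higher and 0.0193% lower. At an unadjusted p under 0.05, 2 genes were higher and 0 lower (limma), against 8.15% and 2.83% of all rows. The median log2 fold change of the 40 genes was 0.45, which is 0.32 above the median of all tested rows (0.13), and 30 of the 40 (75%) lay above that median, against 50% of all rows. That gap of 0.32 was 0.12 without SKO replicate 2 and 0.15 without wild-type replicate 1. Taken library by library, the 60S median level minus that of all tested rows had an SD within genotypes of 0.35. The median standard error of a gene was 0.44. SKO means lay between 0.657 times wild type for Rplp0 and 2.85 times for Rpl32, with 32 genes higher and 8 lower.

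Rpl32 and Rpl41 had the largest differences, both higher in SKO. Rpl32 (chromosome 6, 115805514 to 115808743 in GRCm38, gene identifier 19951) encodes a conserved protein of the 60S body. It had 15.3, 18.3 and 24.6 FPKM in wild type and 32.2, 69.7 and 63.7 FPKM in SKO. Every SKO value lay above every wild-type value. The means were 19.4 ± 4.72 and 55.2 ± 20.2 FPKM (SD, n = 3 each), and the log2 fold change was 1.41 (SE 0.43, limma adjusted p = 0.281).

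Rpl41 (chromosome 10, 128548110 to 128549168, gene identifier 67945) encodes a very short, highly basic peptide that bridges the subunits. It had 12.2, 19.9 and 31.8 FPKM in wild type and 39.6, 63.3 and 59.4 FPKM in SKO, again without overlap. The log2 fold change was 1.38 (SE 0.44, limma adjusted p = 0.303). Rpl4 was the third gene with all SKO values on the higher side, at 22.1, 48.5 and 59.8 FPKM in wild type and 74.6, 68.6 and 60.5 FPKM in SKO, a gap of less than 1 FPKM at the boundary. These 3 of 40 genes compare with 10.9% of all tested rows.

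Rpl9 and Rplp0 were the genes with every SKO value below every wild-type value, 2 of 40 against 4.78% of all rows. Rpl9 (chromosome 5, 65388364 to 65391431, gene identifier 20005) encodes a protein near the base of the P stalk. It had 23.4, 21.5 and 32.2 FPKM in wild type and 10.4, 21.2 and 21.2 FPKM in SKO (log2 fold change -0.57, SE 0.41, limma adjusted p = 0.644). Rplp0 (chromosome 5, 115559467 to 115563729, gene identifier 11837), the scaffold of the P stalk, had 3.40, 3.39 and 5.08 FPKM in wild type and 1.67, 3.28 and 2.84 FPKM in SKO (log2 fold change -0.47, limma adjusted p = 0.658). Its density was low in all libraries. The higher count was 7.5% of the 40 genes and the lower 5%, which are below and near their shares over all rows.

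**Figure D3:**
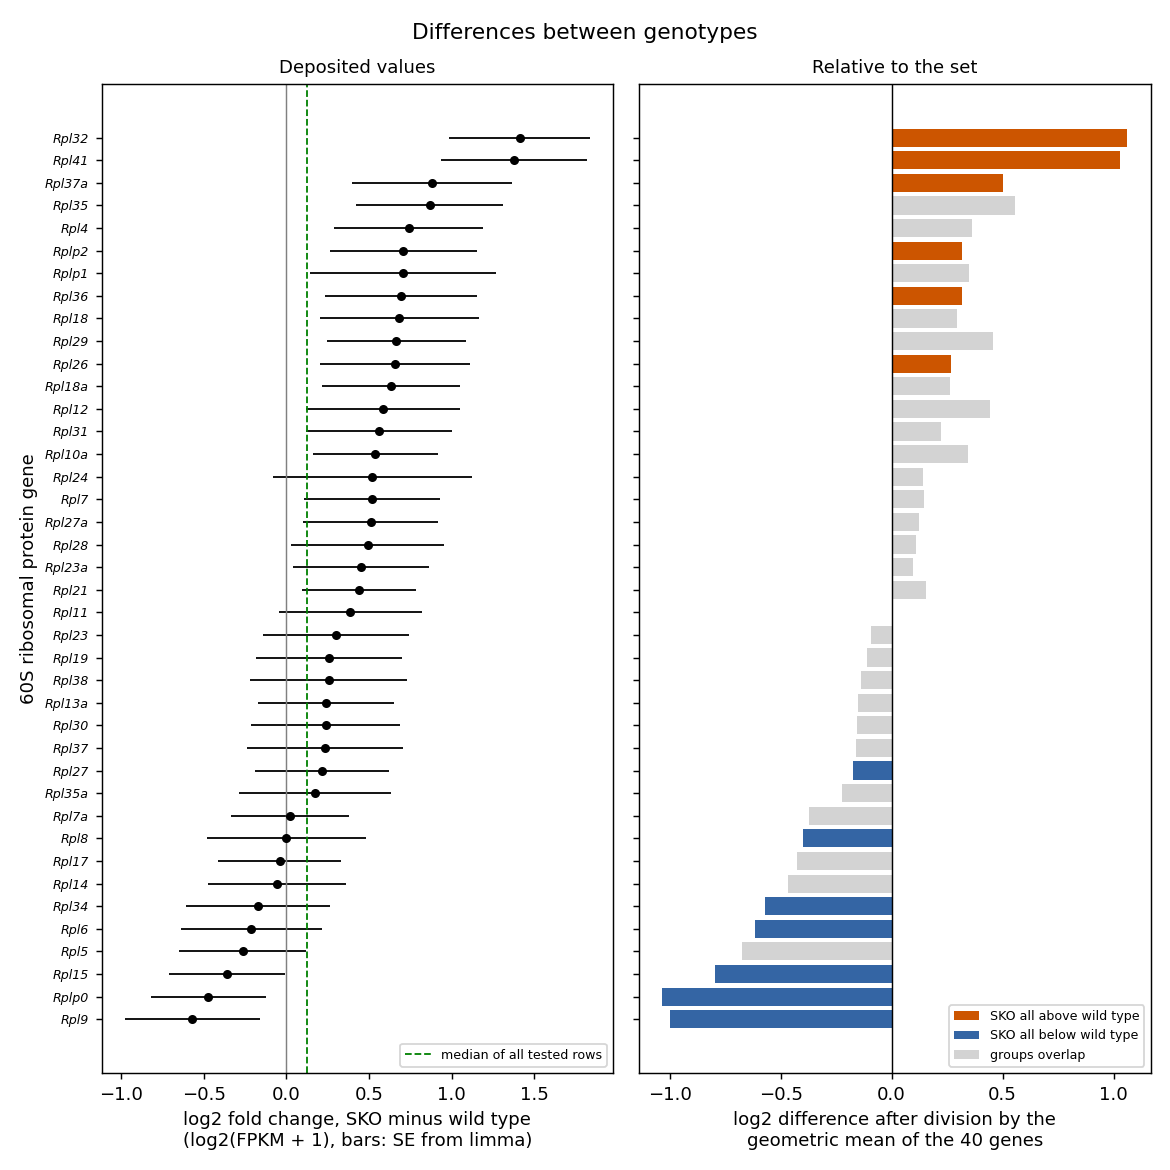
Left, log2 fold change (SKO minus wild type, log2(FPKM + 1)) of each of the 40 genes with its SE from limma; the dashed line is the median of all tested rows (0.13). Right, the log2 difference after each library was divided by the geometric mean of the 40 genes, coloured where the 3 SKO values lie all above or all below the 3 wild-type values; Rpl32 and Rpl41 stand out at the top, and Rplp0 and Rpl9 at the bottom.

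Scaling the libraries changed which genes passed. When each library was rescaled to the same sum over protein-coding rows, Rpl32 and Rpl41 rose (scaled log2 fold changes 1.18 and 1.15, limma adjusted p = 0.0181 and 0.0312). They made 2 of 40 genes, against 2.02% of all rows called higher under that scaling and 1.3% called lower. Quantile normalization called the same genes higher (adjusted p = 0.0238 and 0.0440, limma), against 1.59% of rows. It called 1.27% of rows lower. Under TMM-type scaling neither passed (limma adjusted p = 0.0587 and 0.0850), against 0.764% of rows called higher and 0.257% lower. The genotypes were then separate for 4 genes on the higher side (11.6% of all rows) and 3 on the lower (9.85%). With equal protein-coding sums they were separate for 8 genes on the higher side, 20% of the 40 against 11.3% of all rows, and 5 on the lower, 12.5% against 11.8%. With protein-coding rescaling and any library left out, Rpl41 no longer passed (limma adjusted p from 0.0621 to 0.123) and Rpl32 passed in 1 of 6 (0.0387 to 0.0790). The direction of both genes was the same in all 19 alternative settings, but many of these could not reverse it. A change of filter or error model leaves the estimate as it is. With separate groups, leaving out 1 library cannot change the sign of the deposited difference.

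Within the set, the genotypes were separate for 13 genes. Dividing each library by the geometric mean of the 40 genes, a scaling chosen after the values were seen, removes the movement they share. The 3 SKO values then lay above wild type for 6 genes, Rpl32, Rpl41, Rpl37a, Rplp2, Rpl36 and Rpl26, which is 15% of the 40 against 8.27% of all rows. They lay below for 7 genes, Rplp0, Rpl9, Rpl15, Rpl6, Rpl34, Rpl8 and Rpl27, which is 17.5% against 15.8%. Since the set sets its own zero, some members must lie on either side.

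Rpl32 was nearly constant within wild type on that scale, at -0.05, -0.10 and -0.10 log2 units relative to the set, and stood at 0.83, 0.97 and 1.13 for SKO. As a share of the summed 60S density it had 1.39%, 1.29% and 1.26% in wild type, against 2.51%, 2.60% and 3.05% in SKO. Rpl32 passed with this scaling (log2 fold change 1.03, limma adjusted p = 0.0195), as did Rpl41 (1.00, adjusted p = 0.0493, limma) and, on the lower side, Rpl9 (-0.95, adjusted p = 0.0447, limma). These 2 higher genes and 1 lower gene compare with 1.4% and 2.12% of all rows. None of the 3 passed when any library was left out (limma adjusted p from 0.0523 to 0.162). Rpl9 held 2.11%, 1.52% and 1.65% of the summed 60S density in wild type, against 0.808%, 0.788% and 1.01% in SKO.

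Some other genes with separate groups varied little within a genotype on this scale. This did not hold across the set, since Rpl12 had an SD of 1.57 log2 units in wild type. Rplp2 lay at 2.46, 2.48 and 2.49 log2 units above the set in wild type, against 2.73, 2.82 and 2.82 for SKO. Rplp0 lay at -2.23, -2.53 and -2.37 in wild type, against -3.43, -3.44 and -3.36 for SKO (limma adjusted p = 0.175 under the set scaling). Rpl34 lay at 2.31, 2.28 and 2.22 in wild type, against 1.59, 1.56 and 1.94 for SKO. Rpl6 lay at 0.51, 0.80 and 0.67 in wild type, against -0.04, 0.02 and 0.16 for SKO. These 4 genes were picked from those with separate groups on this scale, so their lack of overlap is no further result. None of them passed the test over all rows.

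**Figure D4:**
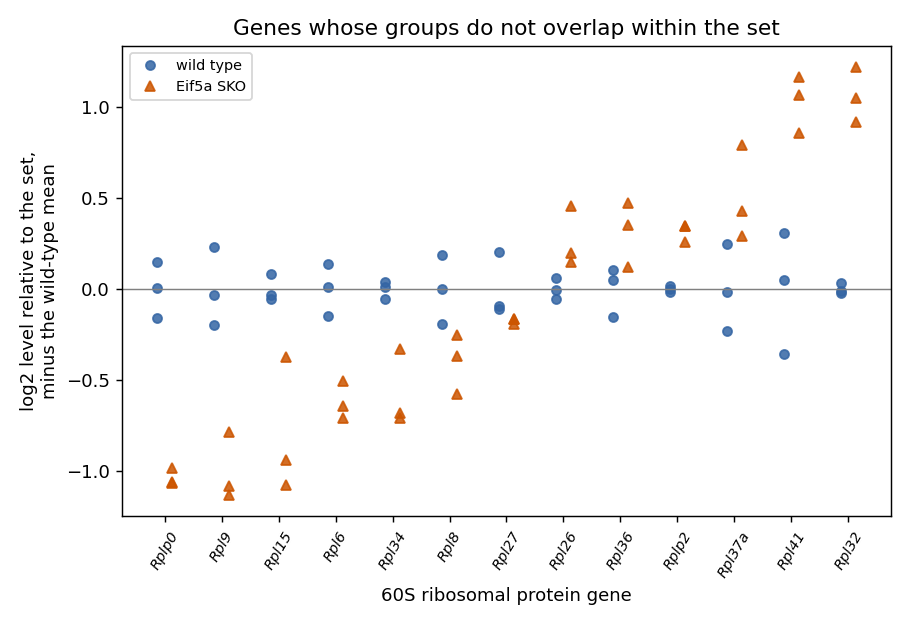
The 13 genes whose genotypes did not overlap after each library was divided by the geometric mean of the 40 genes, as log2 units relative to each gene's wild-type mean; circles are the 3 wild-type and triangles the 3 SKO libraries. Rpl32 and Rpl41 lie about 1 log2 unit higher in SKO and Rplp0 and Rpl9 about 1 lower, while Rpl27 and Rpl26 are separated by much less.

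By position on the ribosome, the P stalk genes Rplp1, Rplp2 and Rpl12 had log2 fold changes of 0.70, 0.71 and 0.59, and Rplp0 -0.47. Of the 4 genes, 3 lay above the median of all rows, as did 75% of all 40 genes, and 0 passed. The P stalk recruits elongation factors, with P0 as its anchor and P1 and P2 as acidic arms, and Rpl12 lies at its base. Rplp1 had 8.50, 8.22 and 21.4 FPKM in wild type and 8.33, 30.7 and 27.6 FPKM in SKO. Rpl12 had 6.30, 2.20 and 1.20 FPKM in wild type and 5.02, 5.42 and 3.48 FPKM in SKO. The genotypes overlapped in both. Relative to the set, Rplp2 was higher in every SKO library and Rplp0 lower. The median of the 4 log2 fold changes exceeded that of all rows by 0.52.

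Rpl10a, the protein of the L1 stalk that EIF5A touches, had low density in all libraries. It had 2.63, 1.40 and 4.14 FPKM in wild type and 4.16, 3.40 and 5.04 FPKM in SKO, and the genotypes overlapped (log2 fold change 0.54). Rpl5 and Rpl11 carry the 5S RNA into the subunit and, when free, restrain the p53 ligase MDM2. Rpl5 had 13.0, 22.2 and 24.6 FPKM in wild type and 19.2, 13.6 and 15.2 FPKM in SKO, a log2 fold change of -0.27 (limma adjusted p = 0.855). Rpl11 had 15.4, 19.6 and 30.2 FPKM in wild type and 18.5, 41.5 and 27.5 FPKM in SKO, a log2 fold change of 0.39. Both genes overlapped between genotypes, and their difference from each other was not tested.

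Around the exit tunnel for the growing chain, 5 of 6 genes lay above the median of all rows, near the 75% of all 40 genes that did. Rpl26 had 47.7, 56.8 and 82.3 FPKM in wild type and 60.1, 147 and 100.3 FPKM in SKO. Rpl35, which sits at the tunnel mouth, had 5.08, 7.60 and 6.97 FPKM in wild type and 6.40, 15.3 and 20.0 FPKM in SKO (log2 fold change 0.87, limma adjusted p = 0.516). Rpl31, another protein of the tunnel mouth, had 4.96, 9.83 and 11.9 FPKM in wild type and 8.50, 19.7 and 12.5 FPKM in SKO. The genotypes overlapped in all 3 genes as deposited, but not in Rpl4, described above, which belongs to the same group. The gene below the median of all rows was Rpl17, with wild-type values of 3.38 ± 1.65 FPKM against 3.10 ± 0.564 FPKM in SKO (SD, n = 3 each). The exit tunnel genes had a median 0.48 above that of all rows, and 0 of 6 passed.

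Among 6 genes of the subunit bridges, Rpl41 had the largest difference, and the median lay 0.15 above that of all rows. Rpl8, which lies close to the catalytic centre, had 60.6, 85.5 and 130 FPKM in wild type and 52.8, 130 and 98.0 FPKM in SKO, with a log2 fold change of 0.00 as deposited and SKO values below wild type relative to the set. Rpl24 had 10.2, 18.2 and 25.0 FPKM in wild type and 10.0, 56.9 and 24.9 FPKM in SKO, so SKO replicate 2 alone lay outside the wild-type range on the high side. Rpl19 and Rpl30 had log2 fold changes of 0.26 and 0.24. Of the remaining genes, Rpl37a had the largest difference, at 27.5, 29.3 and 54.6 FPKM in wild type and 38.7, 108 and 68.5 FPKM in SKO (log2 fold change 0.88, limma adjusted p = 0.549). Rpl15 had 7.16, 8.70 and 12.8 FPKM in wild type and 6.40, 7.79 and 6.97 FPKM in SKO (-0.36, limma adjusted p = 0.751).

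Some rows named as pseudogenes of these genes held high footprint densities. Ribosomal protein genes have left many processed copies in the mouse genome whose sequence is close to that of the gene, and the treatment of reads that map to several places is not given in the sources used here. The table lists 73 rows named as pseudogenes (-ps) of 23 of the 40 genes, and in 14 of those 23 the -ps rows summed to more than the gene. Taken singly, 13 of the 73 rows had a mean above that of their gene, and others were near 0, such as Rpl21-ps7 at 0.20 FPKM. Rpl35a-ps2, Rpl35a-ps3 and Rpl35a-ps6 held the same 6 values, so the sum for Rpl35a counts these values more than once. Rpl38-ps2, at 340, 407 and 664 FPKM in wild type and 377, 923 and 659 FPKM in SKO, was 3.05 times as dense as Rpl38 itself. The 6 -ps rows of Rpl30 summed to 3.87 times the gene, and the 9 of Rpl31 to 6.21 times. Rpl32, Rpl41 and Rplp0 had no row of this kind. A row named Rpl32l had 6.15, 8.53 and 9.81 FPKM in wild type and 13.7, 30.4 and 22.9 FPKM in SKO, without overlap, like Rpl32.

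**Figure D5:**
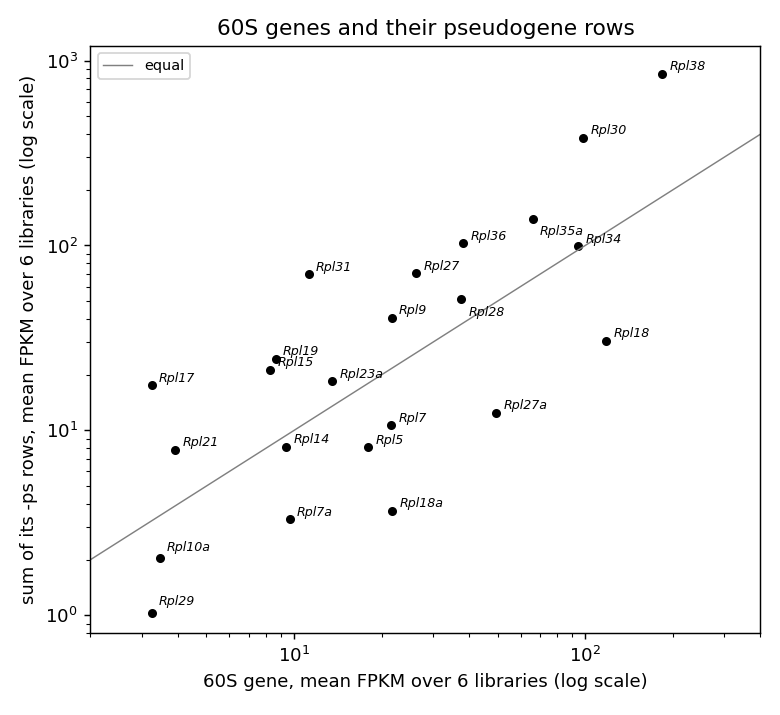
Mean FPKM over the 6 libraries of the 23 genes with pseudogene rows (horizontal) against the summed mean FPKM of those rows (vertical), both on log axes, with a line of equality. The points of 14 genes lie above the line, among them Rpl38, Rpl30 and Rpl31.

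Summed pseudogene rows did not overlap between genotypes for 6 of the 23 genes, higher in SKO for Rpl21, Rpl23a, Rpl27a and Rpl31 and lower for Rpl7a and Rpl9. Of all tested rows, taken singly, 10.9% were separate on the higher side and 4.78% on the lower. Sums of rows that may share reads are not strictly comparable with single rows. Those of Rpl7a stood at 0.521 times wild type while the gene itself stood at 1.04 times. The 3 of Rpl9 summed to 49.8 ± 11.4 FPKM in wild type, against 31.6 ± 12.1 FPKM in SKO (SD, n = 3). That is 0.635 times wild type against 0.683 times for Rpl9. Those of Rpl31 summed to 44.2 ± 12.8 and 95.4 ± 29.8 FPKM, 2.16 times wild type against 1.53 times for Rpl31. Across the 23 genes the Spearman correlation of the 2 ratios was 0.73, a description of rows that may share reads. Genes with pseudogene rows had a median level of 21.6 FPKM, and the 17 without them 37.7 FPKM. With each gene summed with its -ps rows, 0 of 40 genes passed (limma), and Rpl15 changed sign to 0.07. Rpl32 and Rpl41, which have no such rows, kept their values by construction. Values of genes with a copy are uncertain to the extent that reads were split between rows, which was not tested.

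Introns of ribosomal protein genes also house small nucleolar RNAs (snoRNAs), which guide RNA modification. RefSeq places 34 snoRNA genes inside 16 of the 40 genes, and 5 of them had rows in the table. Gm22571 inside Rpl4 was listed at 4877, 5551 and 3650 FPKM in wild type and 11513, 9162 and 4479 FPKM in SKO, far above Rpl4. Snora21 inside Rpl23 was listed at 201, 653 and 50.2 FPKM in wild type and 4320, 168 and 356 FPKM in SKO. Gm26387 inside Rpl5 had 1305 FPKM in SKO replicate 1 and between 30.4 and 114 FPKM in the other 5 libraries. Of the other rows, Gm23136 inside Rpl4 was also highest in SKO replicate 1, at 3139 FPKM. Snord42b inside Rpl23a was highest in SKO replicate 2, at 1999 FPKM against 603 FPKM in SKO replicate 1. The genotypes overlapped in all 5 rows. A protein-coding gene overlapped 9 of the 40 genes, and the table's counting is not stated to use strand.

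Other genes of the translation machinery were set beside the 60S genes from lists drawn up by function. Of 31 tested 40S genes 0 passed (limma). At an unadjusted p under 0.05, 3 were higher and 0 lower (limma), near the 8.15% of all rows that were higher, and the median lay 0.25 above that of all rows. The 3 were Rps20, at 28.9 ± 4.45 and 68.3 ± 16.9 FPKM, Rps24, at 53.5 ± 15.7 and 126 ± 32.1 FPKM, and Rps25, at 43.7 ± 15.7 and 88.2 ± 24.5 FPKM (wild type first, then SKO, as in the pairs that follow, with SD, n = 3). Their genotypes did not overlap, 3 of 31 genes against 10.9% of all rows. The densest, Rps14, had 165 ± 43.7 and 202 ± 82.5 FPKM. Among 60S proteins and paralogues outside the rule, Rpl39l was the densest and had 172 ± 49.6 and 330 ± 103 FPKM, and Rpl22l1 had 65.4 ± 24.6 and 103 ± 30.1 FPKM. Rpl3 had 28.9 ± 6.82 and 18.8 ± 5.56 FPKM, and 0 of 9 tested genes of this list passed (limma).

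Genes that share the TOP tract or build the subunit did not lie above other rows as lists. The 18 other TOP mRNAs had a median of -0.04 relative to all rows, with 0 called and 2 higher at an unadjusted p under 0.05 (limma), against 8.15% of all rows. They were Tpt1, the translationally controlled tumour protein, at 4.74 ± 0.863 and 11.1 ± 3.06 FPKM, and Vim, vimentin, a filament protein of somatic cells, at 2.96 ± 1.05 and 6.65 ± 2.34 FPKM. The densest, the elongation factor Eef1a1, had 194 ± 59.7 and 307 ± 121 FPKM, and the poly(A)-binding protein gene Pabpc1 had 125 ± 42.5 and 118 ± 52.5 FPKM. Of 43 tested 60S assembly and export factors 0 passed, 2 were higher at an unadjusted p under 0.05 (limma), below that share, and the median was -0.04 relative to all rows. The densest were Mrto4, at 67.1 ± 13.0 and 71.6 ± 37.2 FPKM, and the nucleolar chaperone Npm1, at 41.3 ± 14.2 and 82.9 ± 32.6 FPKM. The 13 tested regulators of TOP mRNAs and of ribosomal RNA synthesis had a median of -0.19 relative to all rows, 0 called and 0 with an unadjusted p under 0.05 (limma). Larp1, which binds TOP mRNAs, had 10.3, 10.0 and 15.8 FPKM in wild type and 8.39, 16.1 and 10.4 FPKM in SKO. Larp1b, the densest, ranged from 1.26 to 169 FPKM without separating the genotypes.

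Markers of other cells moved with the genotype beside these values. All 12 round spermatid markers had rows, and their summed density was 762 to 1385 FPKM for wild type, against 994 to 2107 FPKM for SKO, with 0 of 12 past the test and 4 higher at an unadjusted p under 0.05 (limma), against 8.15% of all rows. Of 13 Sertoli cell markers 7 had rows, with sums of 19.1 to 24.0 FPKM in the wild-type libraries, against 67.4 to 101.1 FPKM for SKO. Of 9 Leydig cell markers 7 had rows, with 13.6 to 18.6 and 61.2 to 118 FPKM. Of 14 peritubular, endothelial and macrophage markers 7 had rows, with 7.87 to 13.5 and 28.8 to 43.6 FPKM. The peritubular and stromal genes Acta2, Dcn, Cnn1 and Myh11 were higher in every SKO library, and Dcn was the only marker in these lists past the test (limma adjusted p = 0.0470). The macrophage markers C1qa, Adgre1 and Cd68 overlapped between genotypes, with log2 fold changes of 0.03, -0.10 and -0.61. The endothelial markers were not analysed here. Of 6 blood markers 4 had rows, all globin genes, and went the other way, with 50.4 to 110 and 15.2 to 42.0 FPKM.

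Germ cell markers of other stages overlapped between genotypes. Of 10 spermatogonial markers 6 had rows, with sums of 12.6 to 16.9 FPKM for wild type, against 15.8 to 20.5 FPKM for SKO, and Nanos3, Dmrt1 and Sohlh1 were each listed at 0 in at least 1 library. The 10 spermatocyte markers summed to 70.4 to 116 and 80.2 to 131 FPKM, and the 8 elongating spermatid markers to 94.9 to 132 FPKM in SKO and 99.4 to 154 FPKM in wild type. Defb19 of the Sertoli list was listed at 0 in wild-type replicate 3 and Cd68 of the macrophage markers at 0 in SKO replicate 1. Further markers, Sox9, Amh and Wt1 among them, were not analysed here. The part of these cells in the 60S values was not tested.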

How the data were processed

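The authors deposited a table of FPKM values by gene symbol; counts were not used here. Per the submitters' processing notes, cutadapt, Bowtie2, STAR and Cufflinks were used with the build mm10; their roles, the annotation and how multi-mapping reads were handled are not stated there. Columns named WT and cKO were matched to the wild-type and SKO titles by genotype and replicate number. Testing was limited to the 15578 rows whose 6-library mean reached 1 FPKM, which left out 7192. The log2(FPKM + 1) values, which understate changes of low rows, were compared as SKO minus wild type in R 4.3.3 with limma 3.58.1 (eBayes with a trend, two-sided, Benjamini-Hochberg over all tested rows, threshold 0.05), which was tested on simulated data. The SE is limma's. TMM-type factors left out, at either end, 0.3 of the ratios and 0.05 of the levels. No set test was run. Gene symbols, coordinates and promoter windows come from RefSeq tables of GRCm38.p6.

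The 60S genes, the lists and the tests were chosen with earlier results of these data known. Tests are given for the 4 genes with the highest and the 4 with the lowest log2 fold change and for genes past the threshold under a scaling; the 4 densest genes and the role groups are described by their values. Of the other lists the 2 densest genes are named by rule, except that some genes are not reported here; all others, such as those with an unadjusted p under 0.05, were named after their values were seen. Same-numbered replicates were not paired: the correlations of their deviations from the group means were 0.0926, 0.0002 and 0.0243.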

Additional observations from a re-analysis of the deposited data

How the results depend on the processing

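No 60S gene passed under any setting other than 3 scalings. The count of 60S genes called higher was 2 with quantile normalization, 2 with equal protein-coding sums and 2 with 60S-relative scaling, and the count called lower was 1 with 60S-relative scaling (Rpl9). The 60S median relative to all tested rows was 0.32. With 1 library left out it ran from 0.124 to 0.393, lowest without SKO replicate 2 (0.124) and without wild-type replicate 1 (0.147). It was 0.209 at a mean of at least 5 FPKM and 0.219 with a pseudocount of 5. Library by library, the 60S median level minus that of all tested rows had an SD within genotypes of 0.35. Summing genes with their -ps rows turned Rpl15 from -0.36 to 0.068 (limma adjusted p = 0.978). With the replicate number as a block, 0 members passed, the 60S median stayed at 0.32, and 4 rows of the whole table were called higher and 1 lower. The replicate numbers are only names here. Counts over the whole table were 17 higher and 3 lower as deposited, 3 and 1 with a pseudocount of 5, 4 and 1 without a filter, 78 and 8 at a mean of at least 5 FPKM, 53 and 10 with robust estimation, 119 and 40 with TMM-type scaling, 248 and 198 with quantile normalization, 314 and 202 with equal protein-coding sums, 218 and 331 with 60S-relative scaling, and 3 to 25 higher and 1 to 4 lower with 1 library left out. The 40S count was 1 with quantile normalization, with equal protein-coding sums and with 60S-relative scaling. Unknown depth limits all values, most for genes under 5 FPKM. The causes were not tested.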
